A study of Mus musculus with 6 samples.

Results

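Integrins are cell surface receptors made of 1 alpha and 1 beta subunit, and the 10 subunit genes described here are those of the main matrix receptors of mammary epithelium, 6 alpha genes (Itga1, Itga2, Itga3, Itga5, Itga6 and Itgav) and 4 beta genes (Itgb1, Itgb4, Itgb5 and Itgb6). They were taken by name from the 52636 Ensembl genes of the count table, and all 10 were found. RNA of cultured cells, with 3 biological replicates for J110 and 3 for SSM3, was sequenced from the 3′ end of polyadenylated transcripts and counted per gene. J110 cells are a mouse mammary tumour line from transgenic mice that carry AIB1 cDNA under the MMTV LTR, and SSM3 cells are a line from mammary tumours of 129SvEv mice. The labels name no treatment. Both media held insulin and hydrocortisone. SSM3 medium also held transferrin and β-mercaptoethanol, with more serum and a higher CO2 level. With 1 line for each genotype, line, genotype, strain and culture medium cannot be told apart.

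Each alpha subunit pairs with a limited set of beta subunits, and the pair decides which matrix protein the receptor can bind. The β1 subunit has the most partners. With α1 or α2 it binds collagens, with α3 or α6 it binds laminins and with α5 it binds fibronectin. The α6β4 pair binds laminin in hemidesmosomes, the junctions that fix epithelial cells to the basement membrane, and αv pairs with β1, β3, β5, β6 or β8 to bind proteins that carry the RGD peptide, among them fibronectin, vitronectin and latent TGF-β. In the mammary gland α6 (CD49f) and α2 (CD49b) are used as surface markers to sort epithelial subsets.

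Total counts ranged from 5209740 to 5416305 in J110 libraries and from 4200785 to 4792941 in SSM3 libraries. Values are given as CPM, that is counts normalised to library size and scaled by TMM, and 3 counts corresponded to between 0.578 and 0.668 CPM. The floor used here is 3 counts, and a gene is called at the floor in a line where none of its libraries exceeded that. Where a gene had no count in a line, the fold is given as a lower bound against 3 counts over the 3 libraries of that line together. In 3′ libraries a transcript gives about 1 read whatever its length, so CPM was not divided by gene length, and a level of one gene beside another stays approximate. The gene models of a ribosomal RNA locus (CT010467.1, Gm42418 and AY036118) took from 15.1% to 17.2% of counts in J110 and from 0.779% to 1.27% in SSM3. A pair of libraries carried scattered counts of genes that otherwise belonged to the opposite line. J110 replicate 3 had counts in 36 of 46 genes high in SSM3, at 0.218% of their SSM3 level, and SSM3 replicate 2 had counts in 29 of 30 genes high in J110, at 0.418%. Results are also given without these libraries where they changed. Of 6 epithelial markers, Krt8 and Krt18 were counted in every library (6182 to 7401 counts in J110, 4223 to 12324 in SSM3), whereas the other 4 had far fewer counts in J110. Epcam had 2, 1 and 7 counts in J110 and 2376, 2404 and 2412 in SSM3, Krt19 had 59 to 143 against 32985 to 38701, Cdh1 had 11 to 28 against 6019 to 7179, and Cldn4 had 1 to 7 against 1810 to 2204. Fibroblast markers summed to at most 1.98 CPM in any library. Leukocyte markers summed to between 12.3 and 17.8 CPM, mostly reads on Csf1r, whose exons overlap Hmgxb3, while the defining leukocyte gene Ptprc had no count in 5 libraries and 2 in the sixth. Among the endothelial markers Cdh5 had 836, 790 and 856 counts in J110, Kdr had 8, 11 and 6, Pecam1 had 3, 0 and 4, Tek had 1 count in 1 library, and Tie1 and Emcn had none. In SSM3 Cdh5 had 0, 2 and 0 counts, Pecam1 had 1 in 1 library and the other 4 had none. The 6 endothelial markers summed to between 158 and 181 CPM in J110 and to at most 0.425 CPM in SSM3, and the 6 epithelial markers to between 2677 and 2766 CPM in J110 and between 12313 and 13512 CPM in SSM3. Their part in the integrin differences was not tested. Ncoa3, which encodes AIB1, had 102 to 110 counts in J110 and 181 to 199 in SSM3, and shares exon sequence with Sulf2. Whether transcripts of the transgene would be counted on Ncoa3 was not tested.

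Between the lines, 9 of the 10 subunit genes passed the filter on low counts and could be tested. All 9 differed, with 7 lower and 2 higher in SSM3 than in J110 (edgeR's quasi-likelihood test, Benjamini-Hochberg adjusted p below 0.05). Over all 12284 genes tested, 77.9% had an adjusted p below the threshold, 38.6% higher and 39.2% lower in SSM3, so a difference as such was common. In each of the 9 genes the ranges of the lines did not overlap, which was so for 79.6% of all genes tested. The median log2 fold change of the 9 genes, SSM3 against J110, was -0.63, where the median of all genes tested was -0.014. The 9 genes fell into 3 ranges of size. Itga3, Itga6, Itgav, Itgb1 and Itgb4 differed by less than 2-fold, Itgb5 and Itgb6 were 3.27-fold and 10.4-fold higher in SSM3, and Itga2 and Itga5 were at the floor in SSM3. In bulk RNA, fewer cells with a subunit cannot be told apart from less RNA per cell.

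**Figure D1:**
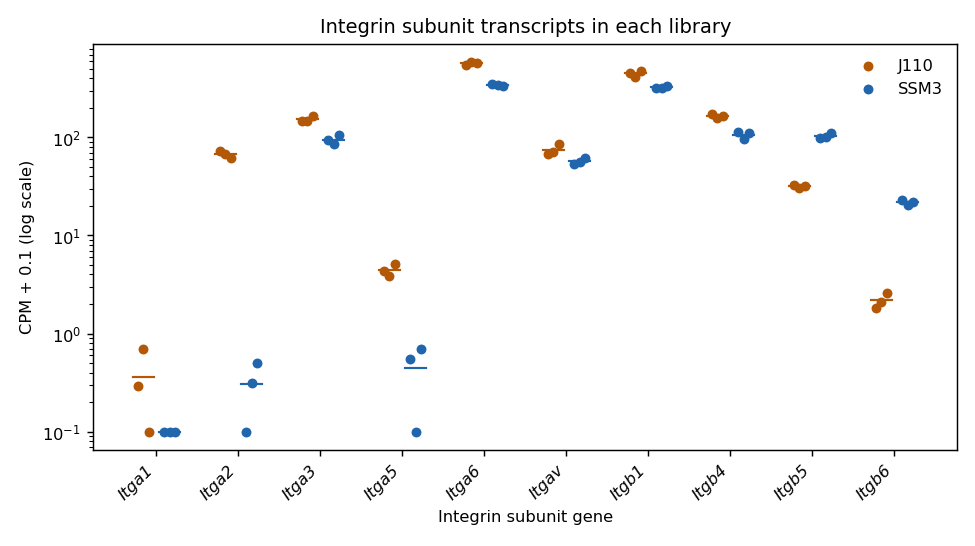
CPM plus 0.1 on a log scale for each of the 10 integrin subunit genes, with 1 point per library (J110 in orange, SSM3 in blue) and a bar at the mean of 3 libraries. Itga2 and Itga5 are near 0 in SSM3 only, Itga1 in both lines, and Itgb5 and Itgb6 are the genes with SSM3 above J110.

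The collagen-binding alpha subunits were counted in J110 or in neither line. Itga2 (ENSMUSG00000015533, chromosome 13 of mm10 from 114833081 to 114932100, reverse strand) encodes α2, the partner of β1 in the main epithelial collagen receptor. It had 378, 342 and 294 counts in J110 against 0, 1 and 2 in SSM3, or 72.9, 67.6 and 61.3 CPM against 0, 0.212 and 0.398 CPM. No SSM3 library came near any J110 library. The ratio of J110 to SSM3 over the summed counts was 320 (95% exact Poisson interval from 109 to 1553, for counting error only), and the adjusted p was 1.15e-13 from edgeR's test. SSM3 replicate 2, the library with scattered J110 genes, held 1 of the 3 SSM3 counts of Itga2, and its part in them was not tested. The fitted log2 fold change of Itga2 was -8.15, and -8.97 without SSM3 replicate 3.

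Itga1 (ENSMUSG00000042284, chromosome 13 from 114953096 to 115101964, reverse strand) encodes α1, the other collagen-binding partner of β1 in this list. It lies 20995 bases from Itga2. It had 1, 3 and 0 counts in J110 and none in SSM3, so it was at the floor in both lines and no fold change is given. Itga1 shares exon sequence with Gm49395 on the same strand, which had 150 to 201 counts per library, and the gene Pelo lies within its span. A read in the shared stretch cannot be assigned to 1 of the 2 genes, so the Itga1 count is uncertain.

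The fibronectin receptor alpha subunit was counted at a low level in J110. Itga5 (ENSMUSG00000000555, chromosome 15 from 103344286 to 103366763, reverse strand) encodes α5, which pairs with β1 alone. It had 22, 19 and 24 counts in J110 against 2, 0 and 3 in SSM3, a mean of 4.34 ± 0.630 CPM (SD, n = 3) against 0.347 ± 0.310 CPM (SD, n = 3). The lines did not overlap, but both means were small. The ratio of J110 to SSM3 was 12.3 (95% exact Poisson interval from 5.01 to 39.1) with an adjusted p of 7.59e-06 from edgeR's test. Leaving out SSM3 replicate 2 changed the fitted log2 fold change of Itga5 from -3.53 to -2.98, leaving out SSM3 replicate 3 gave -4.16, and leaving out both J110 replicate 3 and SSM3 replicate 2 gave -2.87 (adjusted p = 0.000542).

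Among the laminin-binding subunits, Itga6 and Itgb1 had the highest counts of the list in both lines. Itga6 (ENSMUSG00000027111, chromosome 2 from 71745616 to 71858416, forward strand) encodes α6, the CD49f antigen, which pairs with β1 or β4. It had 553, 582 and 579.9 CPM in the J110 libraries and 353, 344 and 338 in those of SSM3. Every SSM3 library was below every J110 library, and all were far above the floor. The log2 fold change was -0.73 ± 0.065 (SE, adjusted p = 2.87e-08, edgeR), a 1.66-fold difference. Transcripts of CD49f were thus abundant in both lines. Itga3 (ENSMUSG00000001507, chromosome 11 from 95044474 to 95076801, reverse strand) encodes α3, a β1 partner for laminins of the basement membrane. Its values were 147, 146 and 167 CPM for J110 and 93.7, 84.9 and 106 CPM for SSM3, a log2 fold change of -0.69 ± 0.094 (SE, adjusted p = 4.72e-06).

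Itgb4 (ENSMUSG00000020758, chromosome 11 from 115974709 to 116008412, forward strand) encodes β4, whose only partner is α6 and whose long cytoplasmic tail links laminin to keratin filaments. It had 174, 159 and 165 CPM in the J110 libraries and 113, 96.4 and 111 in those of SSM3. The lines did not overlap, and SSM3 was lower by 1.55-fold (log2 fold change -0.63 ± 0.085 SE, adjusted p = 3.72e-06, edgeR). Itgb1 (ENSMUSG00000025809, chromosome 8 from 128685654 to 128733200, forward strand) encodes β1, the shared partner of α1, α2, α3, α5, α6 and αv. Its values were 455, 417 and 476 CPM for J110 and 316, 322 and 336 CPM for SSM3, a 1.38-fold difference (log2 fold change -0.47 ± 0.071 SE, adjusted p = 1.45e-05). None of Itga3, Itga6 and Itgb1 shared exon sequence with another annotated gene. Itgb4 shared exon sequence with B230344G16Rik, which had at most 2 counts per library.

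The αv group differed in opposite directions by subunit. Itgav (ENSMUSG00000027087, chromosome 2 from 83724397 to 83806916, forward strand) encodes αv, the common alpha subunit of the RGD receptors. It had 68.4, 70.6 and 86.2 CPM in the J110 libraries and 53.0, 56.5 and 61.7 in those of SSM3, with a log2 fold change of -0.39 ± 0.10 (SE, adjusted p = 0.00268, edgeR). The gap between the lines was narrow, and the highest J110 value was that of replicate 3. Without J110 replicate 3 and SSM3 replicate 2 the log2 fold change of Itgav was -0.27 with an adjusted p of 0.0551, and with library size only, without TMM, it was -0.22 with an adjusted p of 0.0591. Itgav shares exon sequence with Gm13684 on the opposite strand, which had at most 7 counts per library. Over all alternatives to the processing the adjusted p of Itgav ranged from 0.000755 to 0.0591.

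Itgb5 (ENSMUSG00000022817, chromosome 16 from 33829665 to 33949338, forward strand) encodes β5, which with αv binds vitronectin and the milk fat globule protein Mfge8. It had 32.4, 30.5 and 32.1 CPM for J110 and 99.8, 101 and 110.04 CPM for SSM3. The spread within a line was small beside the gap between the lines, and the log2 fold change was 1.71 ± 0.092 (SE, adjusted p = 4.32e-11, edgeR). Itgb6 (ENSMUSG00000026971, chromosome 2 from 60598292 to 60722643, reverse strand) encodes β6, an epithelial subunit that with αv binds and activates latent TGF-β. It had 9, 10 and 12 counts in J110 against 103, 97 and 110 in SSM3, or 2.07 ± 0.393 CPM (SD, n = 3) against 21.8 ± 1.17 CPM (SD, n = 3). Its log2 fold change was 3.39 ± 0.22 (SE, adjusted p = 4.87e-10). J110 replicate 3, the library with scattered SSM3 genes, had the highest J110 value of Itgb6, and the other J110 libraries were also above the floor.

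**Figure D2:**
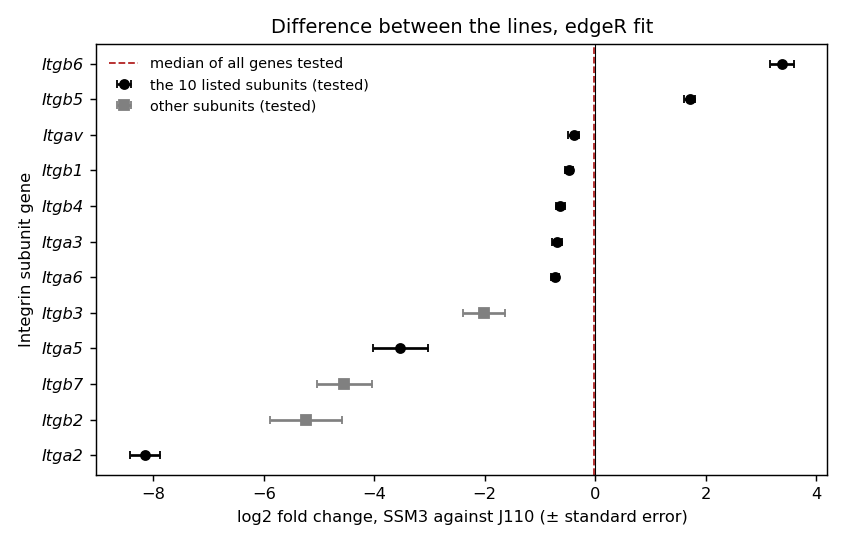
Log2 fold change, SSM3 against J110, with its standard error from the edgeR fit, for the 9 tested genes of the list (black circles) and the 3 other integrin subunits that could be tested (grey squares). The dashed line is the median of all genes tested, -0.014. Itgb5 and Itgb6 lie to the right of 0 and the other 10 genes to the left. The fitted values of Itga2, Itga5 and Itgb2, at the floor in SSM3, depend on the prior count of the fit.

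The upstream regions of the 4 members with the largest differences are shown because these genes set the lines apart. They are the 250 bases before the RefSeq start on build GRCm38.p6, at chr13:114932101-114932350 (reverse strand) for Itga2, chr15:103366792-103367041 (reverse strand) for Itga5, chr16:33829415-33829664 (forward strand) for Itgb5 and chr2:60722604-60722853 (reverse strand) for Itgb6, each written 5′ to 3′ on the strand of the gene. Capitals mark matches, on either strand, to the GC box GGGCGG or to CACCTG, the E-box of the Snail and Zeb type. The TATA box TATAAA and the AP-1 motif TGANTCA were also searched, and none of these motifs overlap each other here.
Itga2 upstream region: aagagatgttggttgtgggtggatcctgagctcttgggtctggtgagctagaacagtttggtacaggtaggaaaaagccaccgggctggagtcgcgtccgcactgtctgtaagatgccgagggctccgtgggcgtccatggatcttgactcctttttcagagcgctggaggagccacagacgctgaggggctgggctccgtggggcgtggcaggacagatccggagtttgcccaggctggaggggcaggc
Itga5 upstream region: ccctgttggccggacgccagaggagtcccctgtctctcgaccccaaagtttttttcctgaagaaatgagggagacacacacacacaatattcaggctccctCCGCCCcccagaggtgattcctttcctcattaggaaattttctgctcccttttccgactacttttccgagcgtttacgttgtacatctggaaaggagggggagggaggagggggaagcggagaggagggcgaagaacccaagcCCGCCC
Itgb5 upstream region: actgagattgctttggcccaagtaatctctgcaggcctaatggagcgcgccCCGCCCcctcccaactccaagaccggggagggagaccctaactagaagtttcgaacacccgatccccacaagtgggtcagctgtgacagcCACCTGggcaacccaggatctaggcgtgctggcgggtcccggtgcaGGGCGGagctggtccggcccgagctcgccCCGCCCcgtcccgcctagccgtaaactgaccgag
Itgb6 upstream region: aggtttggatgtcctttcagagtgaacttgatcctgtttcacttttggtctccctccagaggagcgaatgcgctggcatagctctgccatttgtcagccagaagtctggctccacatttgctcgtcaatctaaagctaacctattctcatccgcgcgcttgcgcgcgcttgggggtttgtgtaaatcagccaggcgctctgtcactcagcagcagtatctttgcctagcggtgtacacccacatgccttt
Itga5 held 2 GC boxes and Itgb5 held 3, with 1 CACCTG match in Itgb5. No match to the 4 motifs was found in the windows of Itga2 and Itgb6. Over all 32851 promoters of this length, 32.7% held a GC box, 17.2% CACCTG, 12.4% the TATA box and 6.75% the AP-1 motif. The G and C content was 60.8% in Itga2, 55.6% in Itga5, 65.2% in Itgb5 and 52.0% in Itgb6, against a median of 52.4% over all promoters. Of the 10 members, 8 had a RefSeq promoter in the table used. These matches describe the sequence only.

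The count of one subunit per count of another within the same library does not depend on how libraries are scaled. These ratios, chosen after the values were seen, were computed for 6 subunits against Itgb1. Itgb5 per Itgb1 was 0.0712, 0.0731 and 0.0675 in J110 and 0.315, 0.312 and 0.328 in SSM3, 4.51-fold higher as a ratio of geometric means. Itgb6 per Itgb1 was 0.00461 ± 0.000730 in J110 and 0.0672 ± 0.00461 in SSM3 (SD over 3 libraries each), 14.7-fold higher as a ratio of geometric means. For both, the lines lay apart (two-sided exact permutation p = 0.1, which is the lowest value possible with 3 libraries per line, and 0.15 after Benjamini-Hochberg adjustment over the 6 ratios). Itga3 per Itgb1 and Itga6 per Itgb1 also lay apart, with lower values in SSM3. The means were 0.341 ± 0.0156 against 0.292 ± 0.0261 for Itga3 and 1.28 ± 0.104 against 1.06 ± 0.0537 for Itga6 (SD, n = 3 each), with the same exact p of 0.1 and adjusted 0.15. Itgav per Itgb1 overlapped between the lines, at 0.167 ± 0.0153 and 0.176 ± 0.00814 (SD, n = 3 each, exact permutation p = 0.5). Itgb4 per Itgb1 overlapped as well, at 0.370 ± 0.0205 and 0.330 ± 0.0295 (SD, n = 3 each, exact permutation p = 0.2). With 3 libraries a line no ratio could reach the threshold of 0.05.

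**Figure D3:**
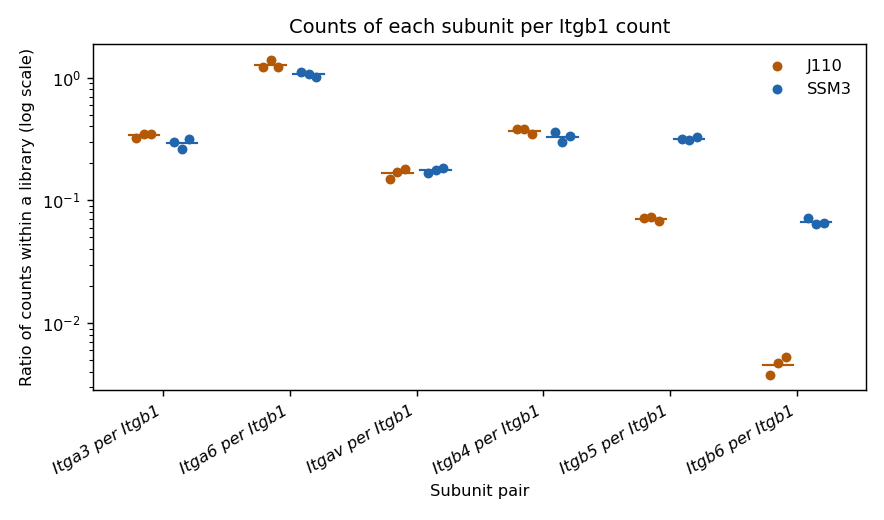
Counts of 6 subunits divided by the Itgb1 count of the same library, on a log scale, with 1 point per library and a bar at the arithmetic mean of 3 libraries (J110 in orange, SSM3 in blue). All SSM3 points of Itgb5 and Itgb6 lie above all J110 points, and the Itgav and Itgb4 ratios overlap.

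Among the αv partners, the summed counts of Itgb3, Itgb5 and Itgb6 per Itgav count were 0.555, 0.580 and 0.470 in J110 and 2.353, 2.165 and 2.161 in SSM3. The level of this sum was thus below that of Itgav in every J110 library and above it in every SSM3 library, as far as 3′ counts of different genes can be set side by side. The sum leaves out Itgb1, whose product also pairs with αv. Itgb1 counts alone were above those of Itgav in every library. They were 2108 to 2358 against 355 to 413 in J110, and 1421 to 1687 against 238 to 310 in SSM3.

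To describe which matrix receptors the transcripts allow, the 24 alpha-beta pairs known in mammals were examined, and a pair was taken as detectable in a line where both subunits had more than 3 counts in every library of that line. By this rule 9 pairs were detectable in J110 and 7 in SSM3, and all 7 of SSM3 were among the 9 of J110. Both lines held transcripts for the laminin receptors α3β1, α6β1 and α6β4, and for the RGD receptors αvβ1, αvβ3, αvβ5 and αvβ6. The collagen receptor α2β1 and the fibronectin receptor α5β1 were detectable in J110 only, since Itga2 and Itga5 were at the floor in SSM3. Of the 9 pairs that the 10 listed genes can form, 8 were detectable in J110 and 6 in SSM3, and α1β1 was the 1 pair detectable in neither.

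A stricter level changed which pairs set the lines apart. Requiring at least 10 CPM of both subunits in every library left 6 pairs in each line. The laminin receptors, αvβ1 and αvβ5 were among them in both lines, α2β1 in J110 only and αvβ6 in SSM3 only. The subunit with the lower mean level was Itga2 at 67.3 CPM for α2β1 in J110, and Itgb6 at 2.07 CPM in J110 and 21.8 in SSM3 for αvβ6. In the αvβ5 pair it was Itgb5 in J110 at 31.7 CPM and Itgav in SSM3 at 57.1 CPM. For α6β4 it was Itgb4 in both lines, at 166 and 107 CPM. Surface protein, pairing and activation were not measured in these libraries.

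**Figure D4:**
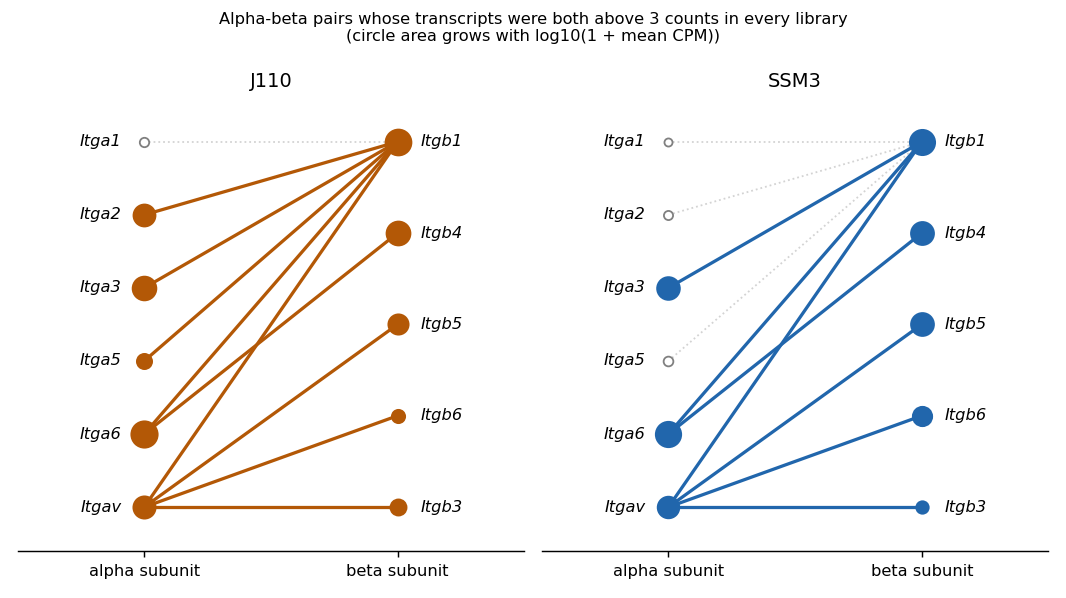
Alpha subunits (left) and beta subunits (right) of the pairs that can form from the listed genes and Itgb3, for J110 (orange) and SSM3 (blue). A solid line joins subunits that both had more than 3 counts in every library of the line, a dotted grey line marks a pair below that level, open circles are subunits below it, and circle area grows with the log of mean CPM. J110 has 9 solid lines and SSM3 has 7, without α2β1 and α5β1.

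The other 17 integrin subunit genes had few or no counts in both lines. Of these, 10 were at the floor in both lines, 5 of which had no count in any library (Itga4, Itgam, Itgax, Itgb2l and Itgb8). Of the 3 that could be tested, all were lower in SSM3, as were 39.2% of all genes tested. Itgb3, a further partner of αv, had 20, 43 and 28 counts in J110 and 9, 5 and 7 in SSM3 (log2 fold change -2.02 ± 0.38 SE, adjusted p = 0.000133, edgeR). Itgb7 had 59, 50 and 47 counts in J110, and 0, 0 and 6 in SSM3, where all 6 fell in replicate 3 (adjusted p = 4.00e-07). Without SSM3 replicate 3 the fitted log2 fold change of Itgb7 went from -4.54 to -8.65. Itgb2 had 22, 17 and 15 counts in J110 and 0, 1 and 0 in SSM3, a ratio of 51.1 (95% exact Poisson interval from 8.79 to 2055, adjusted p = 1.82e-06). Without SSM3 replicate 2, which held the only SSM3 count, the fitted log2 fold change of Itgb2 went from -5.24 to -7.15.

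Itgb7 and Itgb2 encode leukocyte beta subunits, and Itgal encodes the αL partner of β2. Itgal had 9, 9 and 7 counts in SSM3 and none in J110, at least 8.81-fold higher in SSM3 against a floor of 3 counts over the J110 libraries. It did not pass the filter on low counts. In J110 Itgb7 had no partner above the floor in every library, since Itga4 had no count and Itgae had 3, 5 and 2 counts. Itgb2 in J110 and Itgal in SSM3 were each without their partners. Ptprc, which marks leukocytes, had no count in any J110 library and 0, 2 and 0 counts in SSM3. Itga10, Itgae and Itga2b had from 1 to 5 counts in every library, and Itga7, Itga8, Itga9, Itga11 and Itgad had at most 2.

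Adaptor proteins link the beta subunit tails to actin. Of 27 adaptor genes listed, all 27 could be tested, and 20 were lower, 5 higher and 2 without a call in SSM3. Over all genes tested, 39.2% were lower and 38.6% higher in SSM3. The median log2 fold change of the adaptors was -1.08, unchanged with Lims2 set to its lower bound. The most abundant were Actn1, Actn4 and Flna, which encode actin crosslinkers. Actn1 averaged 1049 ± 36.2 CPM in J110 libraries and 271 ± 8.92 CPM in SSM3 libraries, Actn4 averaged 584 ± 17.8 and 428 ± 37.7 CPM, and Flna averaged 504 ± 17.3 and 188 ± 13.1 CPM (SD, n = 3 each). All 3 were lower in SSM3, with log2 fold changes of -1.95, -0.45 and -1.42 (adjusted p of 1.49e-13, 3.60e-05 and 2.73e-11 from edgeR's test). Actn4 shares exon sequence with Capn12 on the opposite strand, which had 1024 to 1390 counts per library, so its difference is uncertain. The largest differences were in Tns1, Lims2 and Parvb, which were high in J110 only. The tensin gene Tns1 had 294, 311 and 298 counts in J110 and 0, 0 and 1 in SSM3, Lims2, which encodes a PINCH protein, had 90, 71 and 61 against none (at least 70.01-fold lower in SSM3), and Parvb, which encodes β-parvin, had 911, 1001 and 717 against 3, 6 and 1. Without SSM3 replicate 3 the fitted log2 fold change of Tns1 went from -9.29 to -11.19, and without SSM3 replicate 2 that of Parvb went from -7.90 to -8.61.

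Transcripts of the core adhesion proteins were counted in both lines. Tln1, which encodes the talin that activates integrins, averaged 168 ± 7.66 CPM in J110 libraries and 175 ± 16.8 CPM in SSM3 libraries (SD, n = 3 each), which gave a log2 fold change of 0.062 ± 0.084 (SE, adjusted p = 0.511, edgeR). With library size only, without TMM, it was 0.24 with an adjusted p of 0.0153. Tln1 shares exon sequence with Creb3, which had 148 to 266 counts per library. Ilk, which encodes integrin-linked kinase, had a log2 difference of 0.43 in favour of SSM3 (adjusted p = 0.000109), but Ilk shares exon sequence with Taf10 on the opposite strand, which had more counts than Ilk in every library. The kindlin genes differed in direction, with log2 fold changes of 1.55 for Fermt1 and -0.58 for Fermt2 (adjusted p of 1.77e-06 and 9.52e-05). Vcl, which encodes vinculin, averaged 453 ± 33.3 CPM in J110 and 77.5 ± 5.09 in SSM3 (SD, n = 3 each). It shares exon sequence with Ap3m1, which had more counts in every library, so its level is uncertain.

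In the hemidesmosome, α6β4 binds plectin and lies beside the tetraspanin CD151. Plec was lower in SSM3 (354 ± 17.9 against 234 ± 8.95 CPM) and Cd151 was higher (179 ± 7.23 against 247 ± 4.81 CPM, SD, n = 3 each), with log2 fold changes of -0.60 and 0.47 (adjusted p of 9.68e-07 and 1.59e-05 from edgeR's test). Plec shares exon sequence with Parp10, which had 31 to 141 counts per library. Dst averaged 144 ± 2.49 CPM in J110 and 138 ± 14.9 in SSM3 (SD, n = 3 each), and its adjusted p was 0.493. Col17a1, which encodes the transmembrane collagen of hemidesmosomes in skin, had 2 counts in 1 J110 library and none elsewhere.

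Ligand genes were listed to see which binding partners each line transcribed itself. Of 11 laminin chain genes, 7 could be tested, with 5 lower and 2 higher in SSM3 and a median log2 fold change of -1.04. Of all genes tested, 39.2% were lower and 38.6% higher in SSM3. Lama3 and Lamb3 encode laminin chains of the epithelial basement membrane. Lama3 averaged 18.9 ± 2.37 CPM in J110 libraries and 2.42 ± 0.717 CPM in SSM3 libraries, and Lamb3 averaged 310 ± 14.0 and 75.1 ± 6.71 CPM (SD, n = 3 each), with log2 fold changes of -2.97 and -2.04 (adjusted p of 9.68e-09 and 1.41e-12 from edgeR's test). Lamb1 was lower in SSM3, with a log2 difference of -3.02 from 226 ± 3.82 to 27.8 ± 2.45 CPM (SD, n = 3 each, adjusted p = 2.86e-14 from edgeR's test).

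Collagen chains are the ligands of the α2β1 pair. The 14 collagen genes summed to between 322 and 335 CPM in J110 libraries, and to between 198 and 218 CPM in SSM3 libraries, where nearly all of it was Col6a3. Of the 14 genes, 6 could be tested, with 5 lower and 1 higher in SSM3 and a median log2 fold change of -7.73, or -7.50 with genes at 0 in a line set to their lower bound. The shares over all genes tested were 39.2% lower and 38.6% higher. Col4a1, a chain of basement membrane collagen, had 830, 830 and 710 counts in J110 and 1, 1 and 0 in SSM3, and Col4a2 had 371, 369 and 369 against 1 in each SSM3 library. Col5a2 had 334, 254 and 268 counts in J110 and none in SSM3, at least 269.96-fold lower. Col6a3 alone was higher in SSM3, with 13.5 ± 2.39 CPM for J110 and 207 ± 9.85 CPM for SSM3 (SD, n = 3 each, log2 fold change 3.93, adjusted p = 1.78e-14 from edgeR's test). The other listed collagen VI genes had few or no counts in SSM3. Col6a1 had 0, 0 and 0 there and 19, 20 and 16 in J110. Col6a2 had 1, 0 and 0 in SSM3 and 6, 6 and 2 in J110.

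Of 14 genes for RGD proteins and other matrix ligands, 10 could be tested, with 6 lower, 2 higher and 2 without a call in SSM3. Among all genes tested 77.9% had a call, 39.2% lower and 38.6% higher in SSM3. The median log2 fold change of the ligand genes was -2.68, unchanged with Edil3 set to its lower bound. Fn1, which encodes fibronectin, the ligand of α5β1, averaged 666 ± 35.2 CPM in J110 libraries and 67.2 ± 1.62 CPM in SSM3 libraries (SD, n = 3 each, log2 fold change -3.31, adjusted p = 1.24e-15 from edgeR's test). Spp1, which encodes osteopontin, was lower in SSM3, at 445 ± 7.54 against 3.43 ± 0.470 CPM (SD, n = 3 each, adjusted p = 6.90e-17), and Thbs1, which encodes thrombospondin, had 281, 235 and 360 counts in J110 and 3, 1 and 2 in SSM3. The genes higher in SSM3 were Mfge8 and Edil3, both of which encode secreted proteins with an RGD site for αvβ5. Mfge8 averaged 217 ± 9.43 CPM in J110 and 661 ± 36.6 in SSM3 (SD, n = 3 each), which gave a log2 fold change of 1.61 ± 0.072 (SE, adjusted p = 3.66e-12). Edil3 had no count in J110 and 51, 46 and 58 counts in SSM3, at least 54.6-fold higher. Itgb5, the beta subunit of that pair, had a log2 fold change of 1.71. Tgfb1 and Tgfb3, whose latent forms are ligands of αvβ6, had adjusted p values of 0.681 and 0.586. Ltbp1, which encodes a latent TGF-β binding protein, was lower in SSM3, at 230 ± 9.60 against 55.3 ± 4.37 CPM (SD, n = 3 each). Its log2 fold change was -2.05 (adjusted p = 1.74e-12, edgeR). Vtn, which encodes vitronectin, had 1 count in all 6 libraries together.

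**Figure D5:**
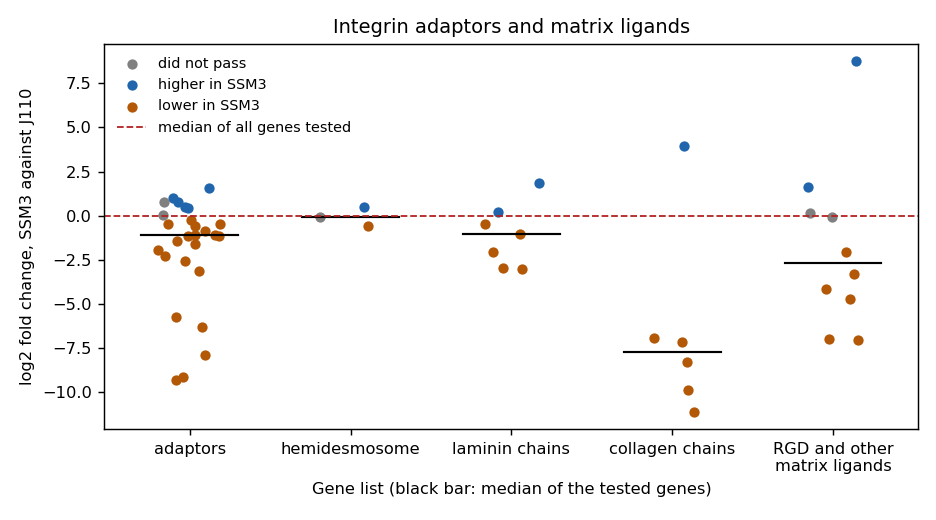
Log2 fold change, SSM3 against J110, of the tested genes in 5 lists, with 1 point per gene placed at random across each column, coloured by whether the gene was higher in SSM3 (blue), lower in SSM3 (orange) or did not pass the test (grey). Black bars are list medians, from -7.73 for collagen chains to -0.066 for the hemidesmosome, and the dashed line is the median of all genes tested, -0.014.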

How the data were processed

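RNA of 3 J110 and 3 SSM3 cultures was sequenced with a QuantSeq 3′ kit. The authors trimmed reads with cutadapt 2.1, mapped them to mm10 with HISAT2 2.0.4, counted them per gene with featureCounts (Subread 2.0.0) and deposited raw counts without normalisation. The strand setting and the treatment of reads on several genes are not given in the sources used here. Of 52636 gene identifiers, 52403 (99.6%) matched GENCODE M21 (GRCm38), which gave symbols and coordinates.

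Genes were kept by filterByExpr, library sizes adjusted by TMM and lines compared by edgeR's quasi-likelihood test (version 4.0.16, R 4.3.3), with p-values adjusted over all 12284 genes tested and a threshold of 0.05. The standard error was the log2 fold change divided by the square root of F. The biological coefficient of variation was 8.30%. Replicates differed by more than sampling noise (chi-square per degree of freedom from 2.21 to 5.62). The study calls the replicates biological, and whether they were separate thaws or passages is not given in the sources used here.

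The members and lists were chosen with earlier results of these data known. Named genes are the members, other integrins above the floor, and in each list the 3 most abundant and the 3 with the largest change. Tln1, Ilk, Vcl, Fermt1, Fermt2, Tns3, Col6a1, Col6a2, Ltbp1, Tgfb1, Tgfb3, Vtn, Col17a1, the remaining integrins and the markers were named after their values were seen. Some results are not reported here. Alternatives covered DESeq2 (version 1.42.0), limma-voom (limma 3.58.1), scaling, filters, a replicate block and leaving out libraries.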

Additional observations from a re-analysis of the deposited data

How the results depend on the processing

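The log2 fold changes of the 9 tested members kept their sign under every alternative that could test them, and all passed the threshold except Itgav, at -0.22 with library size only and -0.27 without J110 replicate 3 and SSM3 replicate 2. Leaving out libraries gave 2 members higher and 6 to 7 lower. Requiring at least 10 counts in every library left 6 members tested, with 1 higher and 5 lower, since Itga2, Itga5 and Itgb6 are removed by construction. The same filter left 0 other integrins and 0 collagen genes lower, and 1 RGD ligand higher. With no filter beyond 1 count, 1 other integrin (Itgal) and 2 collagen genes were higher, and leaving out libraries gave 0 to 1 other integrins higher. Laminin genes higher in SSM3 numbered 1 with DESeq2 and with upper quartile scaling, and from 1 to 2 when libraries were left out. The choice of leaving out J110 replicate 3 and SSM3 replicate 2 together was made after seeing the data. Library size only moved the median of all genes from -0.014 to 0.16. Detectable pairs ranged from 6 to 12 in J110 and from 6 to 7 in SSM3 over the floors tried.

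With the replicate number as a block, 2 members were higher and 7 lower, as without it, and it changed no call of a member. Replicates with the same number shared only that number, with correlations of their deviations from 0.0118 to 0.0268. A gene with at most 3 counts per library was taken as not detectable at this depth, so Itga1, and Itga2 and Itga5 in SSM3, are not shown to be absent.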
